A study of Mus musculus with 2 samples.

Results

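Fatty acids reach the muscle fibre through a short chain of proteins, and the transcripts of 10 of them were measured here in mouse calf muscle. The genes are Lpl, Angptl4, Cd36, Slc27a1, Fabp3, Acsl1, Plin2, Plin4, Plin5 and Pnpla2. They were chosen by symbol for their function, and each matched 1 of the 55536 genes in the deposited gene tables. All 10 are among the 22015 protein-coding genes of the nuclear chromosomes.

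Lipoprotein lipase, bound to the capillary wall, frees fatty acids from triglyceride-rich lipoproteins, and ANGPTL4 inhibits it. The scavenger receptor CD36 and the transport protein FATP1, the product of Slc27a1, bring fatty acids into the cell, FABP3 carries them through the cytosol, and ACSL1 joins them to coenzyme A. Fatty acids that are not burned at once are stored as triglyceride in lipid droplets, which perilipins coat, and adipose triglyceride lipase, the product of Pnpla2, takes the first fatty acid off again.

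The muscle was the gastrocnemius, and its total RNA was sequenced as 2 libraries. Both came from adult females, 8 to 10 months old, of a cross of 5xFAD, a transgenic line with mutated human transgenes, APP among them, that serves as a model of Alzheimer's disease, with CAST, a wild-derived inbred strain. The libraries carry the same group labels, each from 300 ng of RNA, and no control genotype or tissue is among them, so the values are levels in this muscle and the spread between libraries. The labels number the libraries as biological replicates but give both the same donor identifier. Separate animals are therefore not established, and the spread may be partly or wholly technical. The labels do not say whether these animals carried the transgenes, which are human sequences and were not measured. Library 2 held 34541905 expected counts and library 1 held 35594289, and ERCC spike-ins took 0.504% and 0.479% of them. The 7 muscle fibre markers summed to 79761 TPM in library 2 and 67840 TPM in library 1, and all 7 were detected, led by Acta1, Ckm and Tnnt3. TPM is the share of a library's transcripts, scaled to a fixed total after correction for length. It is used to compare genes with each other, with counts per length as an alternative where stated.

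In order of mean TPM the genes were Fabp3, Lpl, Pnpla2, Plin4, Acsl1, Cd36, Slc27a1, Plin2, Plin5 and Angptl4. Together they held 811 TPM in library 2 and 860 TPM in library 1, a mean of 835 ± 34.8 TPM (SD, n = 2), which was 0.182% and 0.22% of all nuclear protein-coding TPM. Reaching at least 1 TPM in both libraries, 9 of the 10 were detected, all but Angptl4, where 44.5% of nuclear protein-coding genes were. Of the 9 pairs of neighbours in this order, 7 had ranges over the libraries that stood apart. Lpl and Pnpla2 overlapped, as did Pnpla2 and Plin4. The deposited tables hold 2 quantifications of each library's reads, the first made from aligned reads, which is used unless stated, and the second from unaligned ones. The second quantifier also let Plin4 and Acsl1 overlap and put Acsl1 before Plin4.

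**Figure D1:**
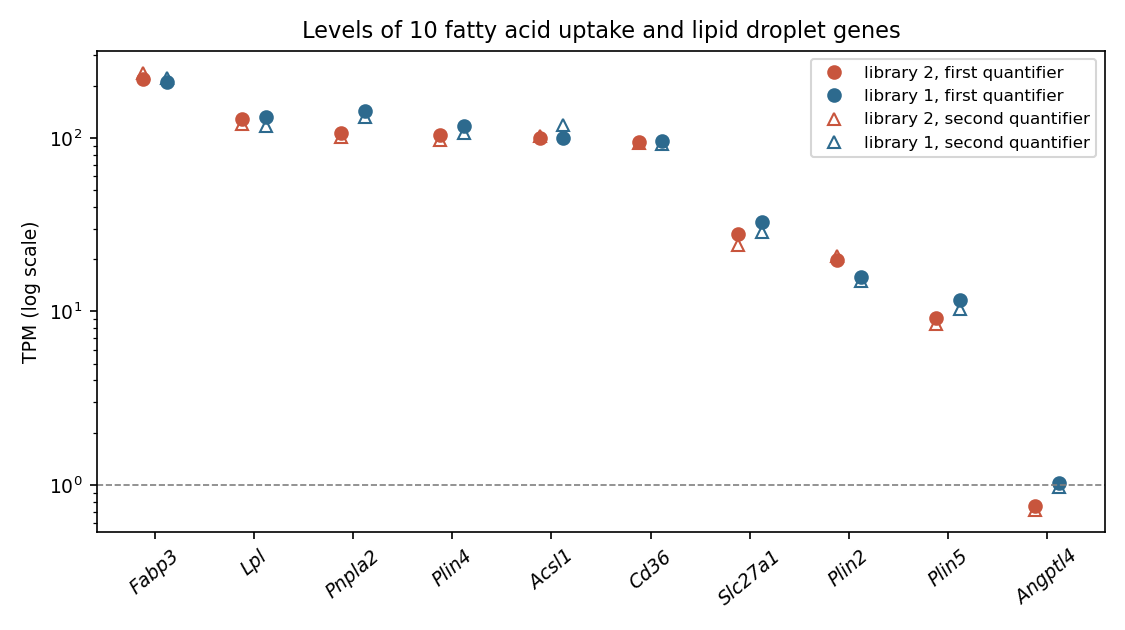
Level of each gene in TPM (logarithmic axis), with library 2 left of library 1 for each gene; filled circles are the first quantifier and open triangles the second, and the dashed line marks 1 TPM. Fabp3 stands alone at the top, a group of 5 genes lies near 100 TPM, and Angptl4 lies at the detection threshold.

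By mean TPM, Lpl was second among the genes and Angptl4, its inhibitor, the last, though Pnpla2 stood above Lpl in library 1, and Plin4 above Lpl by counts per length. Lpl (ENSMUSG00000015568.16, chr8:68880491-68907448, plus strand; all coordinates are mm10) had 129 TPM in library 2 and 132 TPM in library 1, a mean of 131 ± 2.3 TPM (SD, n = 2) and rank 376 of 22015. Angptl4 (ENSMUSG00000002289.16, chr17:33773750-33781830, minus strand) had 0.75 TPM in library 2 (51 expected counts) and 1.02 TPM in library 1 (64 expected counts). Its level therefore straddled the detection threshold, and Lpl exceeded it 172 times in library 2 and 130 times in library 1. Angptl8, another inhibitor of the family, was lower still, at 0.05 TPM in library 2 from 1 count and 0.09 TPM in library 1 from 2 counts.

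Of 13 further genes of plasma lipolysis, 6 were detected and 7 were not, a share near the 44.5% of nuclear protein-coding genes. The 13 included partners of lipoprotein lipase, apolipoproteins, other lipases and a lipoprotein receptor. Gpihbp1, which anchors the lipase to the capillary endothelium, had 12.2 TPM in library 2 and 11.2 TPM in library 1, so that Lpl exceeded it 10.6 times and 11.8 times. Vldlr, a lipoprotein receptor, led the list at 33.3 TPM in library 2 and 34.5 TPM in library 1, followed by Furin, a proprotein convertase that cleaves the lipase and its inhibitors, at 24.0 and 22.4 TPM, and Sel1l, which the lipase needs to leave the endoplasmic reticulum, at 19.8 and 17.1 TPM. In bulk tissue, fewer cells of a type and less RNA per cell cannot be told apart for any of these genes.

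Lpl transcripts fell into 2 main forms. Lpl-201, the coding form with 10 exons, held 71.9% of Lpl TPM in library 2 and 72.3% in library 1. Lpl-203 has 11 exons and the same coding length of 1422 bases, but is annotated as a target of nonsense-mediated decay, and it held 27.3% and 26.8%. The split was close in both libraries, and the second quantifier gave Lpl-203 23.3% and 21.4%. Of Angptl4, the form annotated for nonsense-mediated decay held 44.0% of its TPM in library 2, at 15.3 counts, and 78.4% in library 1, at 42.8 counts.

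Of the uptake genes, Cd36 had the more abundant transcripts. Cd36 (ENSMUSG00000002944.15, chr5:17781690-17888801, minus strand) had 95.2 TPM in library 2 and 95.7 TPM in library 1, a mean of 95.4 ± 0.34 TPM (SD, n = 2). Slc27a1 (ENSMUSG00000031808.7, chr8:71568882-71587302, plus strand) had 28.1 TPM in library 2 and 32.9 TPM in library 1, a mean of 30.5 ± 3.41 TPM. Cd36 thus exceeded Slc27a1 3.39 times in library 2 and 2.91 times in library 1. Slc27a1 was by far the main gene of its family, with 91.0 ± 0.68% of the summed TPM of 6 Slc27a genes, and Slc27a4, the next, stood at 2.56 TPM in library 2 and 2.46 TPM in library 1. The liver forms Slc27a2 and Slc27a5 had at most 8 counts in a library.

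Transcripts of 11 genes, whose proteins help CD36 at the membrane or bind its cargo, were read. All 11 of the listed genes were detected, beside 44.5% of nuclear protein-coding genes. Got2, the mitochondrial aspartate aminotransferase that has also been described as a fatty-acid-binding protein of the plasma membrane, led at 160 TPM in library 2 and 138 TPM in library 1. Dbi, the acyl-CoA-binding protein, stood at 59.8 and 53.8 TPM, and Cavin1, a coat protein of caveolae, at 59.8 and 52.6 TPM. Cav1, the caveolin of endothelium and fat, had 30.9 TPM in library 2 and 22.6 TPM in library 1. Zdhhc4, a palmitoyltransferase of CD36, had 16.9 and 12.6 TPM.

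Cd36 transcription is annotated from 3 groups of start sites, and the most upstream one led in both libraries. Transcripts starting at 17888747 to 17888801 held 66.8% of Cd36 TPM in library 2 and 76.7% in library 1, those starting at 17849729 to 17849792 held 19.7% and 14.1%, and those starting at 17835696 to 17835717 held 13.5% and 9.15%. The second quantifier also put the upstream group first, at 59.7% and 65.3%. Cd36-205, a short form of 702 bases and 5 exons, is annotated with an incomplete end. This form accounted for much of that group, with 33.0% of Cd36 TPM in library 2 and 32.4% in library 1. It drew 498 of the gene's 4919 counts in library 2 and 568 of 5733 in library 1. By counts, which give long transcripts more weight, the upstream group held 54.4% and 67.8%. By counts of the second quantifier it held 40.2% in library 2 and 48.7% in library 1. The next group, from 17849729 to 17849792, then held 38.6% and 28.0%, so the lead was small in library 2. Slc27a1 was spread over more forms, and its 3 retained-intron transcripts held 25.4% of its TPM in library 2 and 31.0% in library 1. The second quantifier gave them 26.0% and 24.6%, so the direction between libraries turned.

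Fabp3, the fatty-acid-binding protein of heart and muscle, was the most abundant of the 10 genes. It had 219 TPM in library 2 and 211 TPM in library 1, a mean of 215 ± 6.1 TPM (SD, n = 2), rank 221 of 22015. Fabp4, the form of adipocytes and capillary endothelium, had 79.2 TPM in library 2 and 61.7 TPM in library 1, so that Fabp3 exceeded it 2.77 times and 3.42 times. Fabp3 held 74.9 ± 2.49% and Fabp4 24.4 ± 2.81% of the summed TPM of 7 family genes. Fabp5, of skin and endothelium, stood at 1.31 and 1.88 TPM, and Fabp6 and Fabp7, of gut and brain, had 0 counts in both libraries, which allows up to 3 counts; as CPM, counts relative to all counts of the library, that is 0.0869 for library 2 and 0.0843 for library 1. Fabp3 (ENSMUSG00000028773.8, chr4:130308595-130315463, plus strand) overlaps Zcchc17 on the opposite strand by 81 bases. Zcchc17 had 739 and 812 counts, and whether the counting used strand is not given in the sources. The pseudogene Fabp3-ps1, which can share reads with Fabp3, held 4.88 and 9.56 counts.

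Acsl1, the long-chain acyl-CoA synthetase that commits fatty acids to oxidation in heart and muscle, differed little between libraries. It had 99.6 TPM in library 2 and 100.2 TPM in library 1, a mean of 99.9 ± 0.42 TPM (SD, n = 2), and the second quantifier gave 103 and 118 TPM. Acsl1 held 81.1 ± 2.67% of the summed TPM of 5 Acsl genes. Acsl6 followed at 12.2 TPM in library 2 and 9.78 TPM in library 1, Acsl4 at 8.26 and 7.76 TPM, Acsl3 at 4.29 and 2.26 TPM, and Acsl5 at 1.5 and 0.8 TPM. The order within the family was the same in both libraries.

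**Figure D2:**
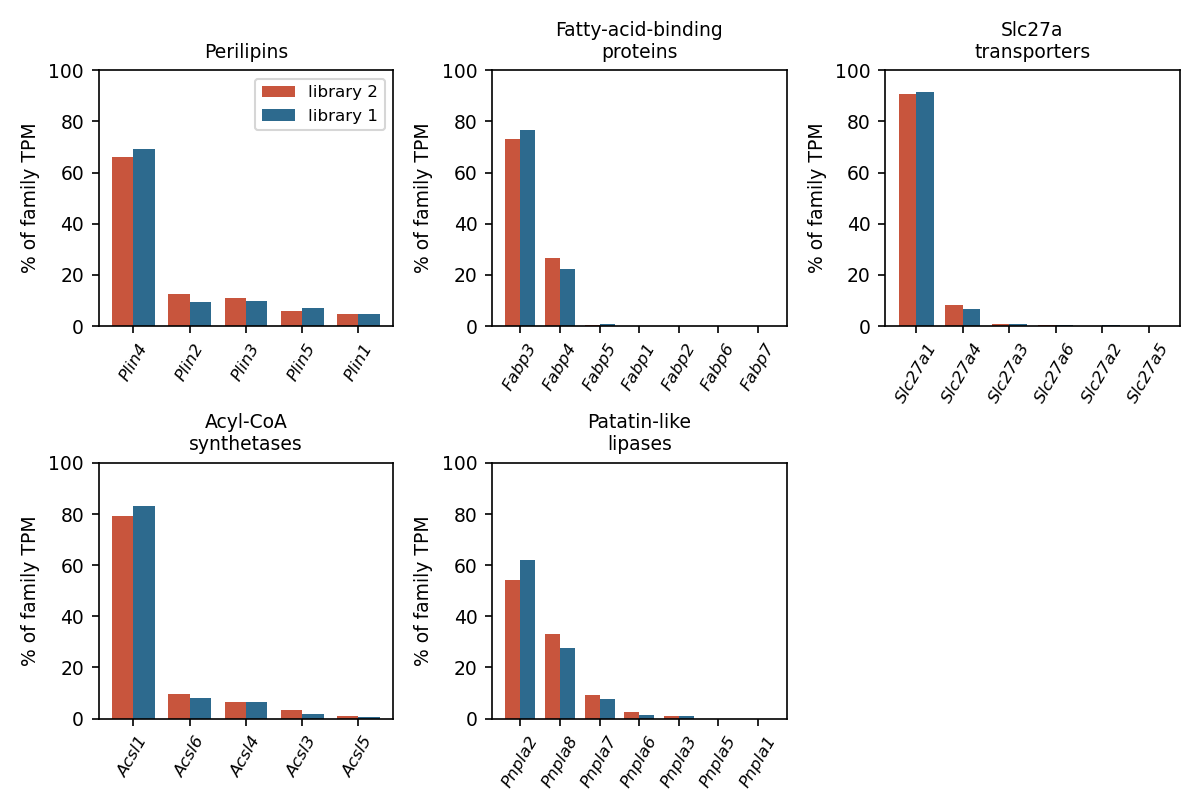
Share of each gene in the summed TPM of its family (percent), with library 2 left of library 1; each of the 5 panels is a family that holds at least 1 of the 10 genes. A single gene leads every panel shown, from Slc27a1 at 91.0 ± 0.68% to Pnpla2 at 58.2 ± 5.59% of family TPM (SD, n = 2).

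Acsl1 (ENSMUSG00000018796.13, chr8:46471037-46536051, plus strand) has 2 start regions whose RefSeq promoter windows (GRCm38.p6, plus strand, 250 bases before the start and 50 from it on) are shown because its transcripts divide between them; capitals mark the 50 bases from the start on. The upstream window is chr8:46470787-46471086 and the downstream window chr8:46490716-46491015.
Acsl1 upstream window: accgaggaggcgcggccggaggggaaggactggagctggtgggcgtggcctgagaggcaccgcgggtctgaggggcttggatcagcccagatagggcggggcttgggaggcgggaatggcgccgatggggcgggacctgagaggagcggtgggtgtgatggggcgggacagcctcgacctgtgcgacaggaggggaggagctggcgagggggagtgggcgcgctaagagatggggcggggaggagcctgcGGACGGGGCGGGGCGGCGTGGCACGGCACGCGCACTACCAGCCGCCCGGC
Acsl1 downstream window: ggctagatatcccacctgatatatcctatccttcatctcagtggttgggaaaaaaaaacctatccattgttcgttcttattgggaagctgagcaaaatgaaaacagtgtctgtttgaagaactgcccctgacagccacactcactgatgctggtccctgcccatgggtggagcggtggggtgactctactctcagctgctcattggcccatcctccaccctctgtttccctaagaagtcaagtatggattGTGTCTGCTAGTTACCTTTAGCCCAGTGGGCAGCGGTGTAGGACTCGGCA
G and C made up 74.0% of the upstream window and 50% of the downstream one, and the median over 32851 windows of the same length was 52.7%.

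Transcripts from the upstream start held most of the Acsl1 signal. They had 85.3% of Acsl1 TPM and 95.4% of its counts in library 2, and 76.2% of TPM and 93.8% of counts in library 1. Those from the downstream start, at 46490966 to 46490974, had 13.6% of TPM and 4.02% of counts in library 2, and 22.5% of TPM and 5.81% of counts in library 1. The second quantifier gave the downstream start 22.1% and 33.3% of TPM, and 22.2% and 19.9% of counts. Both quantifiers therefore ranked the upstream start first, while the downstream share of counts differed by several times between them. Much of the downstream TPM in the first quantifier lay on Acsl1-205, an annotated fragment of 368 bases with 73.3 and 153 counts.

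Among the droplet coat genes, Plin4 stood far above Plin2 and Plin5. Plin4 (ENSMUSG00000002831.13, chr17:56100591-56109803, minus strand), a perilipin of fat and muscle, had 104 TPM in library 2 and 117 TPM in library 1, a mean of 110 ± 9.29 TPM (SD, n = 2). Plin2 (ENSMUSG00000028494.12, chr4:86648386-86670060, minus strand), the perilipin found on droplets of most cells, had 19.7 TPM in library 2 and 15.7 TPM in library 1, a mean of 17.7 ± 2.8 TPM. Plin5 (ENSMUSG00000011305.11, chr17:56111601-56117596, minus strand), the perilipin of oxidative tissues that tethers droplets to mitochondria, had 9.17 TPM in library 2 and 11.7 TPM in library 1, a mean of 10.4 ± 1.77 TPM. Plin4 exceeded Plin5, its neighbour on the same strand at a distance of 1797 bases, 11.3 times in library 2 and 10.0 times in library 1. Plin2 exceeded Plin5 2.15 times in library 2 and 1.35 times in library 1, and the second quantifier gave 2.44 and 1.44 times. This order turns when counts are divided by the length of the longest coding transcript, which gave Plin2 6.98 and Plin5 8.06 CPM per kilobase as a mean over both libraries (CPM is counts relative to the library total), an ordering added after the data were seen.

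Of the summed perilipin TPM, Plin4 held 67.6 ± 2.21%, Plin2 10.9 ± 2.28%, Plin3, a cytosolic perilipin of most tissues, 10.4 ± 0.72%, Plin5 6.38 ± 0.76% and Plin1, the perilipin of adipocytes, 4.68 ± 0.032% (SD, n = 2). The shares of Plin2 and Plin3 overlapped between the libraries. Plin1 had 7.31 TPM in library 2 and 7.94 TPM in library 1, and Plin4 exceeded it 14.2 and 14.7 times. Plin4 overlaps Hdgfl2 on the opposite strand by 17 bases, and Hdgfl2 had 587 and 510 counts.

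The annotation lists 2 Plin4 transcripts that cannot be told apart by reads. Plin4-201 and Plin4-202 have the same sequence but for 1 extra base at the 5′ end of the longer one, although an exon junction is placed 21 bases apart within repeated sequence. The stretch is shown to make this visible; it is bases 1605 to 1685 of Plin4-201 and 1606 to 1686 of Plin4-202 (GENCODE M21, transcript strand), and capitals mark the 21 bases that Plin4-201 places after the junction and Plin4-202 before it.
Plin4-201: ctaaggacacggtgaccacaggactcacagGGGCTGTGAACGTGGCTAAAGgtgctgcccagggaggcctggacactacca
Plin4-202: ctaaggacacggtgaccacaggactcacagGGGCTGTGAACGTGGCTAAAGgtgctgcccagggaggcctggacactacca
The first quantifier gave 99.6 ± 0.19% of Plin4 TPM to Plin4-202, and the second gave it 42.8% in library 2 and 46.2% in library 1. Only their sum, the gene value used above, can be interpreted.

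Plin2 and Plin5 also differed in how firmly their transcripts were resolved. Plin2-208, a processed transcript of 588 bases with no coding sequence, held 36.1% of Plin2 TPM in library 2, at 91.2 counts, and 39.5% in library 1, at 92.3 counts. Plin2-201, the form with the longest coding sequence, had 351 counts in library 2 against 218 in library 1. Of these forms, Plin2-201 thus had more counts in library 2, while those of Plin2-208 hardly differed. Shorter forms were unstable. Plin2-207 held 0% in library 2 and 14.2% in library 1, where the second quantifier gave 16.4% and 9.33%. Counts of single Plin2 forms are therefore not firmly resolved. For Plin5, the first quantifier gave Plin5-201 87.5 ± 7.23% of TPM, and the second gave it 100% in library 2 and 57.9% in library 1.

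Pnpla2, the gene of adipose triglyceride lipase (ENSMUSG00000025509.15, chr7:141455198-141460743, plus strand), had the widest spread between libraries of the 10 genes in absolute TPM. It had 107 TPM in library 2 and 143 TPM in library 1, a mean of 125 ± 26 TPM (SD, n = 2), and the second quantifier gave 101 and 132 TPM. Lipe, the hormone-sensitive lipase that acts after it, had 9.17 TPM in library 2 and 8.72 TPM in library 1, so that Pnpla2 exceeded it 11.6 and 16.4 times. Pnpla2 held 58.2 ± 5.59% of the summed TPM of 7 Pnpla genes, and Pnpla8, a phospholipase of mitochondria and peroxisomes, 30.3 ± 4.00%. Pnpla7, a lysophospholipase, had 18.1 TPM in each library, and Pnpla3, at 1.69 and 2.13 TPM, was the most uneven of the other Pnpla genes above 1 TPM, with a log2 ratio of -0.44.

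The regulators of the lipase were read beside it. Abhd5, its co-activator CGI-58, had 18.9 TPM in library 2 and 13.6 TPM in library 1. G0s2, its inhibitor, had 7.15 TPM in library 2 and 5.42 TPM in library 1. Pnpla2 exceeded Abhd5 5.65 times in library 2 and 10.5 times in library 1, and exceeded G0s2 14.9 and 26.4 times. The log2 ratio of library 2 over library 1 on scaled counts was 0.26 for Abhd5 (95% counting interval 0.13 to 0.39) and 0.22 for G0s2 (-0.13 to 0.58, which includes 0).

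Most of the Pnpla2 TPM lay on transcripts that are annotated as targets of nonsense-mediated decay. Pnpla2-201 and Pnpla2-204 together held 61.8% of Pnpla2 TPM in library 2 and 59.8% in library 1. The second quantifier gave 57.9% and 56.4%. Both contain an exon of 82 bases, chr7:141456568-141456649, which is not a multiple of 3 and which the coding forms Pnpla2-202 and Pnpla2-203 lack. The sequences across the end of exon 1 show what it does to the reading frame (GENCODE M21, transcript strand, bases 239 to 294 of Pnpla2-201 and 238 to 293 of Pnpla2-202); capitals mark the bases after exon 1.
Pnpla2-201: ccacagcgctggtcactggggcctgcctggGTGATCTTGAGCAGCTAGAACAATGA
Pnpla2-202: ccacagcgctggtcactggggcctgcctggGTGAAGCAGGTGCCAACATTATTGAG
With the extra exon, a TGA stop begins at its base 24 and ends the frame after 70 codons, while Pnpla2-202 runs for 430 codons and Pnpla2-203 for 486. Pnpla2-202 lacks a further exon of 168 bases, a multiple of 3. The 4 coding forms made up 36.5% of the gene in library 2 and 37.9% in library 1. Of these, Pnpla2-206, whose annotated end is incomplete, held 13.9% and 12.6%. Both kinds were lower in library 2, with Pnpla2-201 at 58.2 TPM against 74.4 TPM in library 1 and Pnpla2-202 at 21 TPM against 34.7 TPM in library 1. The small share of Pnpla2-203 went the other way, at 2.69 TPM in library 2 and 1.63 TPM in library 1. The second quantifier gave that form 1.66 and 2.28 TPM.

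**Figure D3:**
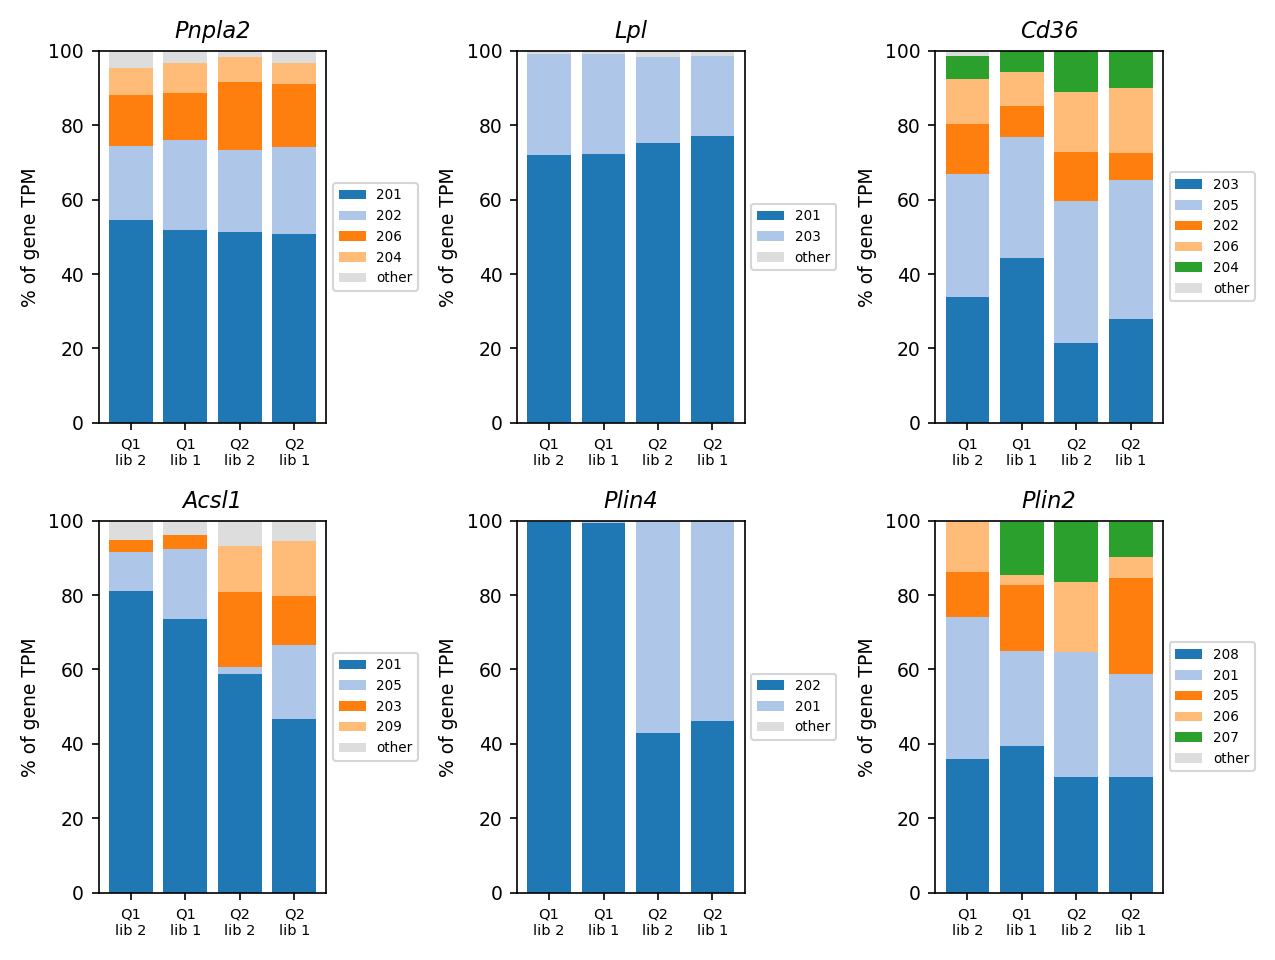
Percent of each gene's TPM assigned to its annotated transcripts in 6 genes, for the first (Q1) and second (Q2) quantifier, with library 2 left of library 1; transcripts under 5% in every bar are pooled as other. The Pnpla2 and Lpl bars differ little between quantifiers, while the Plin4 bars exchange their leading transcript.

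Ratios between the libraries were taken from expected counts after TMM scaling (a trimmed mean of gene-wise ratios), as log2 of library 2 over library 1, since TPM also moves with the most abundant RNAs. With 1 library on each side there is no replicate check and no p-value, and the 95% intervals cover counting error only. The median ratio over the 9 genes detected in both libraries was -0.22, where the median over the 11124 genes whose mean reached 1 TPM was 0.00 and their middle 90% ran from -0.47 to 0.40. Of the 9 genes, 8 were lower in library 2, beside 49.8% of all genes, and Plin2 alone was higher. In deposited TPM, which shifts the median of all genes to 0.17, Fabp3 also turned positive, at 0.06.

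Pnpla2 and Plin5 had the lowest ratios. Pnpla2, with 4860 counts in library 2 against 7527 in library 1, stood at -0.60 on the log2 scale (95% interval -0.65 to -0.55), and 3.35% of genes were as low. Plin5 had 455 and 670 counts, a ratio of -0.53 (-0.70 to -0.35), and 4.12% of genes were as low. Plin2, at 512 and 410 counts, had a ratio of 0.35 (0.16 to 0.54), and 6.02% of genes were as high. The droplet coat genes thus did not share a direction.

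The other ratios were smaller. Plin4 stood at -0.35 (-0.38 to -0.32), Slc27a1 at -0.34 (-0.43 to -0.25), Lpl at -0.22 (-0.25 to -0.18), Cd36 at -0.19 (-0.24 to -0.13), Fabp3 at -0.12 (-0.18 to -0.06) and Acsl1 at -0.07 (-0.11 to -0.02). Angptl4, the least abundant, stood at -0.29 (-0.85 to 0.26), which includes 0. Counting intervals lay wholly below 0 for 8 of the 9 detected genes, beside 15.4% of all genes, and wholly above 0 for Plin2 alone, beside 14.9%. These intervals narrow as counts rise, so a gene with many counts can be called at a small ratio. Acsl1 was called at -0.07, from 8581 counts in library 2 and 9196 in library 1. The genes behind the 15.4% and 14.9% were not matched to the 9 for counts, so these shares also depend on depth. None of the 9 differed by a log2 ratio of at least 1, beside 0.509% of the 6685 genes with mean TPM of at least 5 and at least 100 counts. At least 1.5 times apart was Pnpla2 alone, 1.51 times higher in library 1, beside 2.33% of those genes in either direction and 1.75% in that direction. This call lies at the threshold and is lost on deposited TPM, where the log2 ratio of Pnpla2 was -0.43.

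**Figure D4:**
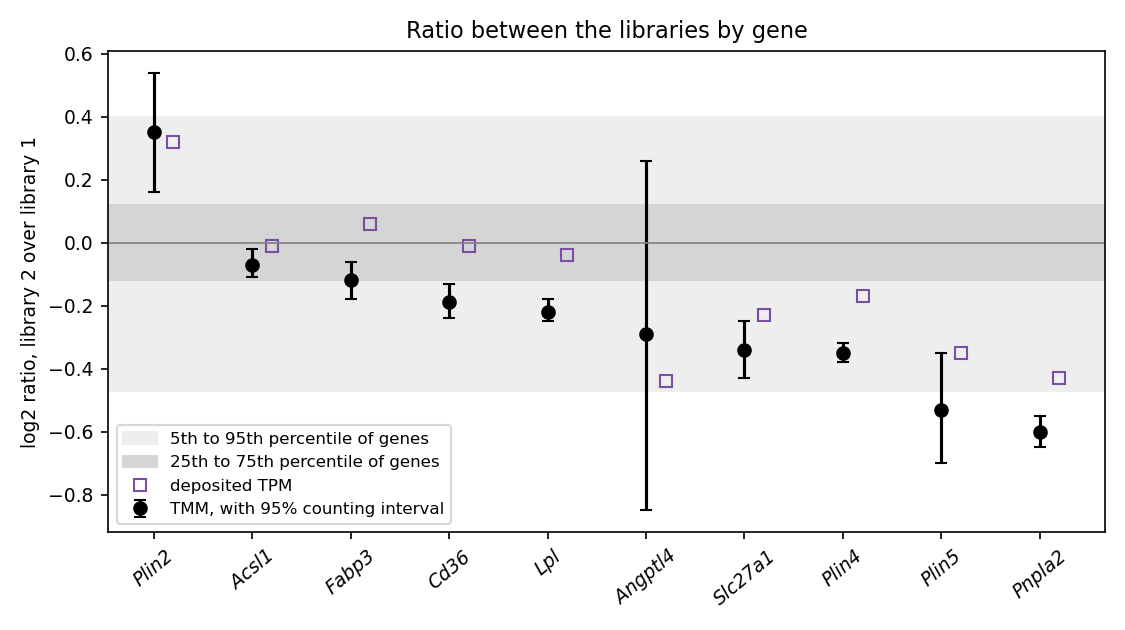
Log2 ratio of library 2 over library 1 for each gene: black points are TMM-scaled counts with 95% counting intervals, open squares deposited TPM, and the grey bands hold the middle 50% and 90% of 11124 genes by TMM. Plin2 lies above 0, and Plin5 and Pnpla2 lie below the wider band.

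The lists of the surrounding pathway had medians nearer to 0. All 15 genes of the carnitine shuttle and beta-oxidation were detected, beside 44.5% of nuclear protein-coding genes. Of them, 13 were lower and 2 higher in library 2, where 49.8% of all genes were lower. Their median log2 ratio was -0.04. It was -0.02 over 9 genes of triglyceride synthesis, -0.03 over 13 other droplet and lipolysis genes, -0.03 over 6 further genes of plasma lipolysis and -0.09 over 13 family paralogs. For the 11 co-factors of CD36 it lay within 0.01 of 0. Hadhb, the thiolase subunit of the mitochondrial trifunctional enzyme, led its list at 147 TPM in library 2 and 136 TPM in library 1, followed by Acadm at 126 and 117 TPM and Acadvl at 118 and 113 TPM, which are the medium-chain and very-long-chain acyl-CoA dehydrogenases. The most uneven of that list were the long-chain dehydrogenase Acadl at -0.23 and the carnitine carrier Slc25a20 at -0.21.

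In triglyceride synthesis, Lpin1, a phosphatidate phosphatase, led at 121 TPM in library 2 and 126 TPM in library 1 and had a ratio of -0.22. Agpat3, an acyltransferase, had 47.8 and 45.6 TPM, and Gpam, the mitochondrial glycerol-phosphate acyltransferase, 45.9 and 38.9 TPM. Dgat2, which makes triglyceride from diglyceride, had 19.5 TPM in library 2 and 13.9 TPM in library 1, a ratio of 0.31. Lpin3 was under 1 TPM in both libraries, with a ratio of 0.67. Of the other droplet genes, the small GTPase Rab7 had 132 TPM in library 2 and 173 TPM in library 1, a ratio of -0.52. Fitm1, the muscle protein that helps droplets form, had 122 and 108 TPM, a ratio of 0.00, and Rab18, a GTPase of the droplet surface, 58.2 and 54.3 TPM.

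Many of the 10 genes are known targets of the PPAR nuclear receptors, and 18 further genes of that system were read. Of these, 15 were detected, beside 44.5% of nuclear protein-coding genes. Over the 16 with mean TPM of at least 1 the median ratio was 0.05, with 6 lower and 10 higher in library 2. The pyruvate dehydrogenase kinase Pdk4 stood apart from that median, with 138 TPM in library 2 and 230 TPM in library 1, a ratio of -0.83. Ucp3, a mitochondrial uncoupling protein, had 32.5 and 40.6 TPM, a ratio of -0.51. Rxra, the receptor's partner, had 55.7 and 47.3 TPM.

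**Figure D5:**
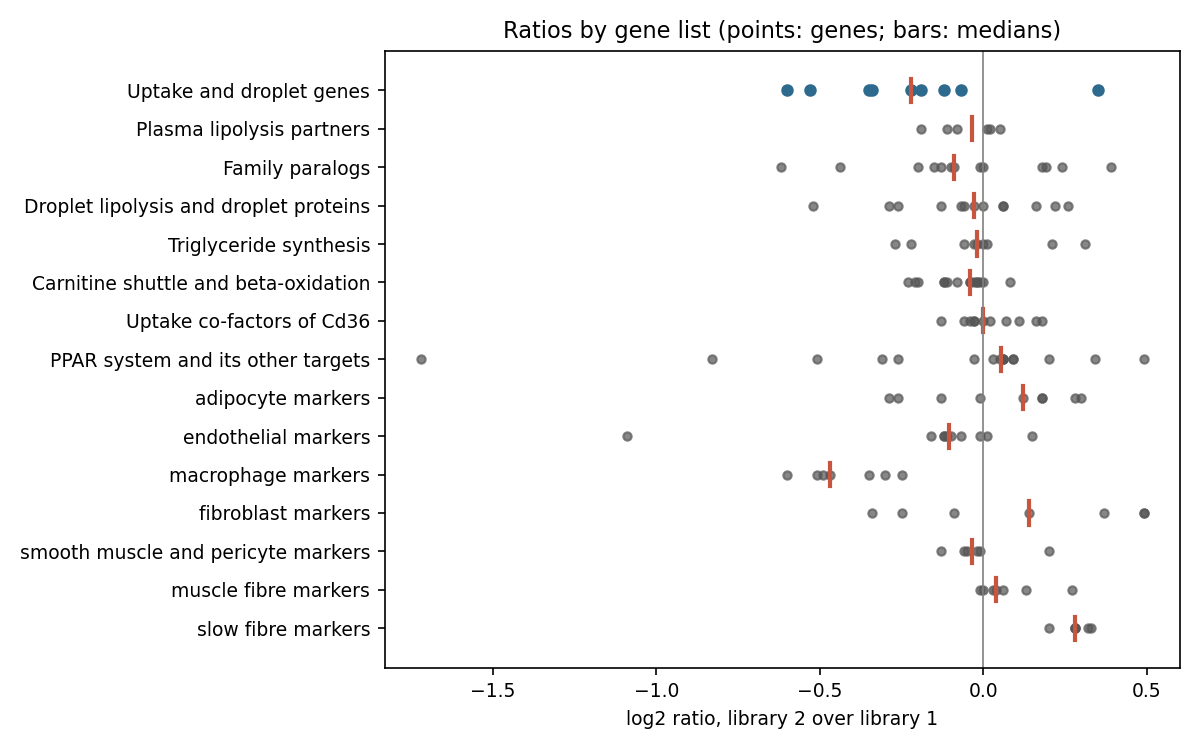
Log2 ratio of library 2 over library 1 (TMM) for each gene with mean TPM of at least 1, by gene list; points are genes and bars list medians, and the top line holds the 9 detected uptake and droplet genes. The lowest point, Acot1 of the PPAR list at -1.72, rests on 16.4 counts in library 2 and 53.6 in library 1.

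Promoter windows from RefSeq were held for 8 of the 10 genes, in 12 windows; Lpl and Angptl4 were not matched. The DR1 element, the textbook PPAR site made of a direct repeat of AGGTCA with a single base between the copies, was in none of the 12 on either strand, beside 0.0396% of 32851 windows, and a looser form that allows any base at the fourth position of each copy also in none, beside 0.381%. Sites this rare would be missing from most sets of 12 windows of this length, so their absence tells nothing about these genes. A single AGGTCA, read on both strands, was in 4 windows, of Cd36, Plin2 and Plin5, beside 16.3% of all windows. The Plin2 window and the upstream Plin5 window are shown since these coat genes had ratios of opposite sign; they are chr4:86670010-86670309 and chr17:56117499-56117798 (GRCm38.p6, both minus strand), and capitals mark AGGTCA or its reverse complement.
Plin2 window: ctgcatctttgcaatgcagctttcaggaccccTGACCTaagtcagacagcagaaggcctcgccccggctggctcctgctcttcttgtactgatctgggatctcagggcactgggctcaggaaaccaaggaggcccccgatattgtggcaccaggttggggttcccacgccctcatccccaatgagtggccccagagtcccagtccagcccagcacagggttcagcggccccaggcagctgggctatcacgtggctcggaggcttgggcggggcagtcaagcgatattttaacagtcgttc
Plin5 window: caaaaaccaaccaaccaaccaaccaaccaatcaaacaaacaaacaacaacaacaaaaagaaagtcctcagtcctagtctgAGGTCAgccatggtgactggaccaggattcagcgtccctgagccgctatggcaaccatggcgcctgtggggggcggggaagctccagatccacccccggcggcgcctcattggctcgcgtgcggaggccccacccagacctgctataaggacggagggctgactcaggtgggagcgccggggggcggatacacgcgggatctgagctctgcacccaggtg
The match begins 218 bases before the start in Plin2, on the other strand, and 170 bases before it in Plin5, on the strand shown. These are matches of letters and show no binding. The Cd36 window belongs to a start at 17835896, near the third of the groups of start sites given above, which held 13.5% of Cd36 TPM in library 2 and 9.15% in library 1 in the first quantifier and 16.0% and 17.5% in the second.

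Several cell types of muscle express these genes, and their markers were read beside them. The 10 adipocyte markers summed to 848 TPM in library 2 and 663 TPM in library 1, most of it Car3, which fibres also express, at 638 and 465 TPM. Cfd had 89.0 and 96.1 TPM, Adipoq 10.0 and 8.17 TPM, Retn 4.62 and 3.28 TPM and Lep 1.01 and 0.52 TPM. By TMM, of the markers with mean TPM of at least 1, 4 were lower and 5 higher in library 2, with a median ratio of 0.12. The 4 lower were Cfd at -0.29, Cidec at -0.26, and Lipe at -0.13 and Plin1 at -0.01, whose intervals include 0. Endothelial markers summed to 146 TPM in library 2 and 134 TPM in library 1, with Aqp1 at 81.2 and 75.3 TPM and Egfl7 at 13.9 and 10.9 TPM. Their median ratio was -0.10, with 8 of 10 lower in library 2, beside 49.8% of all genes. Tie1 stood at -0.16 and Cldn5 at -1.09, from 46 and 100 counts.

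Macrophage markers were lower and slow fibre markers higher in library 2. The 9 macrophage markers summed to 28.9 TPM in library 2 and 32.5 TPM in library 1. By TMM, all 7 with mean TPM of at least 1 were lower in library 2, beside 49.8% of all genes, with a median ratio of -0.47. Some rest on few counts. C1qc, at 68 counts in library 2 and 99 in library 1, had a ratio of -0.51 (-0.98 to -0.05). The interval of the least abundant of the 7 (-1.33 to 0.10) includes 0. Lyz2 had 13.0 and 14.2 TPM, Csf1r 3.74 and 3.64 TPM, C1qa 3.03 and 3.71 TPM, C1qb 2.85 and 3.53 TPM and C1qc 2.34 and 2.95 TPM. The 6 slow fibre markers summed to 1756 TPM in library 2 and 1280 TPM in library 1. All 6 were higher in library 2, where 49.8% of all genes were lower, with a median ratio of 0.28. Myl2 had 427 and 321 TPM, Myl3 341 and 240 TPM, and Myh7 330 and 230 TPM.

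The remaining lists were mixed in direction by TMM. Of the 7 fibroblast markers 3 were lower and 4 higher in library 2, with a median ratio of 0.14. Gsn, at 217 and 226 TPM, had a ratio of -0.25, Dcn, at 114 and 107 TPM, one of -0.09, and Pdgfra one of -0.34, while the collagens Col1a2, Col1a1 and Col3a1 stood at 0.37, 0.49 and 0.49. Of the 6 smooth muscle and pericyte markers 5 were lower and 1 higher in library 2, with a median of -0.04. Rgs5, at 51.2 and 46.9 TPM, had a ratio of -0.05, and the most uneven were Pdgfrb at 0.20 and Myh11 at -0.13. Of the 7 muscle fibre markers 2 were lower and 5 higher, with a median of 0.04, and Pvalb, the parvalbumin of fast fibres, was the most uneven at 0.27. No marker of any list was at 0 in both libraries. What part these markers had in the ratios of the uptake and droplet genes was not tested.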

How the data were processed

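For each library the authors deposited expected counts and TPM per gene and transcript, with each transcript's percent of its gene (the first quantifier), and estimated counts and TPM per transcript from another method (the second quantifier). According to the deposited read-me, both used mm10 with GENCODE M21, one starting from aligned reads and the other from unaligned ones. The sources used here do not give the software, so its settings are unknown. Gene TPM of the second quantifier was summed over transcripts. Of 55536 gene entries all matched GENCODE M21, and 26248 numeric entries with 0 expected counts in library 2 and 1 in library 1 were left out, as were 96 ERCC spike-ins and 1 phage control.

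The members, lists and thresholds were chosen with earlier results of these data known. Named beside the 10 members and their paralogs are, in each list, the 3 genes with the highest mean TPM. Also named are the 2 with the largest absolute log2 ratio among those with at least 100 summed counts. Lipe, G0s2, Adipoq, Acot1 and Cidec were added after their values were seen. Some genes that the rule would name are not reported here. Ratios used rounded expected counts scaled by TMM (edgeR 4.0.16, R 4.3.3) over genes with at least 1 CPM in both libraries, with exact binomial (Clopper-Pearson) 95% intervals, and the scaling step was tested on simulated data. Across 11577 genes edgeR put what it calls the common coefficient of biological variation at 0.0942. Because both libraries carry the same donor identifier, this value may be partly or wholly technical. Where a gene had no count, a level of 3 counts is the upper limit given. Alternatives were DESeq2 1.42.0 size factors, library totals, spike-ins, deposited TPM, the second quantifier, no filter and other thresholds. Reads from CAST alleles were assigned against mm10, and the effect on single genes was not tested.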

Additional observations from a re-analysis of the deposited data

How the results depend on the processing

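No paired analysis was possible because the libraries form 1 group. The median log2 ratio of the members was -0.22 by TMM, -0.28 with spike-ins and -0.04 on deposited TPM. Relative to the median of all genes it was -0.21 on deposited TPM and -0.22 with the second quantifier. The other scalings (no filter, size factors, library totals and spike-ins) shift all genes by the same constant. Subtracting the median removes that constant, so these scalings could not differ from TMM. Relative to the median of all genes, no ratio of the 9 members detected changed sign on deposited TPM or with the second quantifier. Under the other scalings none could. The number of members apart between libraries was 0 under every scaling and 1 at 1.5 times, Pnpla2, which falls below that on deposited TPM (-0.43 against -0.60 by TMM). Against the order by TPM, 1 pair was exchanged by the second quantifier and 3 by counts per length of the longest coding transcript, which put Plin5 before Plin2 and Plin4 before Lpl and Pnpla2, an order chosen after the data were seen. Leaving out 1 library gave 9 to 10 members detected and summed levels of 811 to 860 TPM. Rescaling to nuclear protein-coding genes divides all genes of a library by the same smaller total. All 10 levels therefore rose by construction, by more than the spread between libraries. With the second quantifier 5 levels moved by more than that spread. The share of the leading transcript moved that far in 7 of 10 genes, Plin4 most, at 44.5% against 99.6%. On deposited TPM, where the median of all genes was 0.17 against 0.00 by TMM, 7 of 14 list medians moved. Depth limits Angptl4, at 51 counts in library 2 and 64 in library 1, and intervals cover counting error only. Apart from the rescaling, the cause of these shifts was not tested.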
